A study of Mus musculus with 12 samples.

Results

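The mitochondrial respiratory chain subunits encoded in the nucleus were examined in the mouse thoracic aorta. Members were all genes of the deposited table whose single annotated symbol matched the names of subunits of complexes I to IV, and each gene was represented by the row with the highest mean over the arrays. This gave 60 of 19687 genes, with 32 of complex I, 4 of complex II, 9 of complex III and 15 of complex IV. The rule used names only and no measured difference.

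Each of 12 arrays held the aorta of 1 male C57BL/6 mouse, and no samples were pooled. The 5 nontransgenic mice were littermates of the 7 P467L mice, which carried a human PPAR gamma with the P467L mutation. PPAR gamma is a nuclear receptor and the master regulator of fat cells, and the mutant acts as a dominant negative. The smooth muscle myosin heavy chain promoter drove the transgene, so that it was directed to vascular smooth muscle and not to the other cells of the vessel. The sources used here give no ages, nor whether the mice came from several transgenic lines. About 50 ng of total RNA per mouse was amplified and hybridised to mouse exon arrays from Affymetrix. Values are on a log2 scale, on which a difference of 1 is a doubling.

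The respiratory chain passes electrons from NADH and succinate to oxygen in the inner mitochondrial membrane. Complex I takes electrons from NADH, complex II from succinate, complex III hands them to cytochrome c, and complex IV reduces oxygen. Complexes I, III and IV pump protons, and the ATP synthase, complex V, uses the gradient. In brown fat, Ucp1 lets protons leak back and turns the gradient into heat, and brown adipocytes, like heart and skeletal muscle, are rich in mitochondria. Several complex IV subunits exist as a widespread form and a form of heart, skeletal muscle or brown fat.

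Array medians lay between 4.74 and 4.79, and array upper quartiles between 6.10 and 6.38. Background was set at 5.18, which 95% of the 921 genes of odorant and vomeronasal receptors, silent in most tissues, did not exceed. By this measure 51 members had both group means above background, 1 had one and 8 had neither. All 13 measured smooth muscle markers were above background in both groups, as were 11 of 14 brown adipocyte markers and 13 of 15 adipocyte markers. Ucp1 was 9.32 ± 1.04 (SD, n = 5) in nontransgenic and 9.58 ± 0.96 (SD, n = 7) in P467L aortas, with ranges that overlapped. Markers of fat cells were thus measured beside those of the vessel wall, and in such bulk samples fewer cells of a type and less RNA per cell cannot be told apart. Mouse Pparg differed by 0.01 ± 0.12 (SE), and its row does not test for the human transgene. A set of 3 arrays, nontransgenic replicate 2 and P467L replicates 1 and 2, correlated least with the others and had the lowest upper quartiles.

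Promoter sequence was at hand for 48 of the 60 members, in 50 windows from 250 bases before to 50 bases after the start (RefSeq, GRCm38.p6, whereas the arrays were processed on mm9). Both strands were searched for the NRF1 core CGCANGCG, a binding site of the regulator of nuclear genes for mitochondria. It was found in 14 of 48 members (29.2%), against 9.22% of 27025 genes with a window. The ETS motif CCGGAAG was found in 11 members (22.9%), against 9.93%, and the YY1 letters AAGATGG in 8 (16.7%), against 7.28%. TATAAA was found in 6 members (12.5%), against 15.7%, and CAAGGTCA, the ERR site, in 1 (2.08%), against 1.76%. A direct repeat of the nuclear receptor half-site with 1 base between was found in no member, against 0.0481% of all genes. At so low a share, its absence from 48 members says little. Member windows had a median GC content of 57.3%, against 52.7% over all windows, and no motif overlap was resolved. A match describes the letters and does not show binding. The windows of 4 members are printed as examples, with motif letters in capitals. Cox6a1, a widespread complex IV subunit, holds 2 NRF1 cores and an ETS motif. Cox8b, a complex IV subunit of muscle and brown fat, holds only TATAAA. Ndufb4 and Sdha hold 3 NRF1 cores each.
Cox6a1 (chr5:115348909-115349208, minus strand): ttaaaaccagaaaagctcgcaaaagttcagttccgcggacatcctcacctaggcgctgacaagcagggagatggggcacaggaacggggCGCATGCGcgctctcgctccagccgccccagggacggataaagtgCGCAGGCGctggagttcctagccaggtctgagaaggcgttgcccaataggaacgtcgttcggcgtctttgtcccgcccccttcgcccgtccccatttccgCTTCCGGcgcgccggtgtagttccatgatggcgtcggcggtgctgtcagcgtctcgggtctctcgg
Cox8b (chr7:140900397-140900696, minus strand): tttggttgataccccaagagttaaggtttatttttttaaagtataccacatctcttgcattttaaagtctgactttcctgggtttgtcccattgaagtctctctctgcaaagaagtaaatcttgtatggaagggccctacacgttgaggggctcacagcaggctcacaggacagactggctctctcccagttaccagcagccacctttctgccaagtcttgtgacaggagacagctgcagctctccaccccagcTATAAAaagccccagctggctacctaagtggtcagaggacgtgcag
Ndufb4 (chr16:37654319-37654618, minus strand): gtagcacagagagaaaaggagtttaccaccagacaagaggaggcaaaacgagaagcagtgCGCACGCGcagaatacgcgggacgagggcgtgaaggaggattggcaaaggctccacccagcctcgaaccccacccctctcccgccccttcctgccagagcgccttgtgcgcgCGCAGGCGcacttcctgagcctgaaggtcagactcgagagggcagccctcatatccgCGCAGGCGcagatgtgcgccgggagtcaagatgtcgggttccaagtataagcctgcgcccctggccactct
Sdha (chr13:74350191-74350490, minus strand): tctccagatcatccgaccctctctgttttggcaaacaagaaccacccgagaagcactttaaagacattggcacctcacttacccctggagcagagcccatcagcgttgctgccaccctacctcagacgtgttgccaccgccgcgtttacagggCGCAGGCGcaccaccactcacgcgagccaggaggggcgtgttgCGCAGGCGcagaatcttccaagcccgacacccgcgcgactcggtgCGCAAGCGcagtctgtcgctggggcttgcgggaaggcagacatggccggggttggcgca

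The first comparison asked whether the members differed between P467L and nontransgenic aortas. None of the 60 passed the test in either direction in limma with Benjamini-Hochberg adjustment over all genes (0 higher and 0 lower, smallest adjusted p = 0.739). Over all genes tested, 0.117% were called higher and 0.127% lower. At an unadjusted p under 0.05, 0 members were higher and 2 lower, against 2.45% and 2.37% of all genes. The groups of no member failed to overlap, against 0.376% of all genes that lay wholly higher in P467L and 0.35% wholly lower. A further 7 rows carried a subunit name beside that of another gene and were left out of the members. Of these, a row of Cox7a2l and Gm6969 was 9.25 ± 0.85 (SD) in nontransgenic and 8.02 ± 0.82 in P467L. Its difference was -1.23, and the other shared rows differed by -0.15 to 0.14. No test is given here for these rows, and which gene each measured was not tested.
The size of the differences was small beside their errors. In 50 of 60 members the difference was below its standard error, and in 43 it lay within 0.1 of 0. A 95% interval within 0.5 of 0 was obtained for 49 members. The outermost interval bounds were -0.90 and 0.64, so differences of that size in single members lay within the intervals at this number of arrays. Of the members, 40 were lower and 20 higher in P467L, with a median difference of -0.04 against 0.00 over all genes. With the array upper quartile as a covariate, 22 were lower and 38 higher, so the direction of the majority turned. The median difference of the members was then 0.03, and without nontransgenic replicate 4 it was 0.05. The medians by complex turned as well, to 0.04 in complex I, 0.05 in complex III and 0.003 in complex IV with that covariate, and to 0.05, 0.05 and 0.01 without that array. Leaving out other arrays moved the members' median the other way. Without P467L replicate 4, 51 members were lower, with a median of -0.08. Without nontransgenic replicate 2, 52 were lower, with a median of -0.09.

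**Figure D1:**
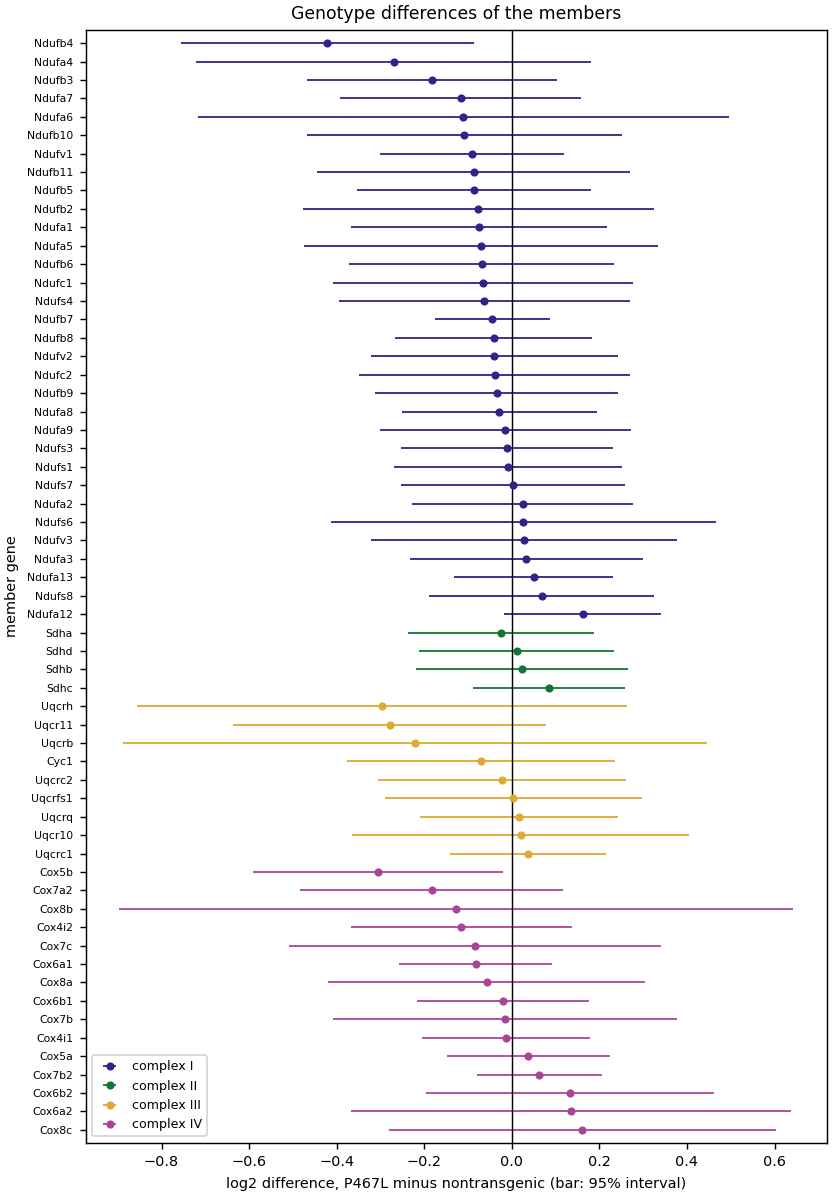
Log2 difference (x axis, P467L minus nontransgenic, dot) with its 95% interval (bar) for the 60 members (y axis), sorted within complexes I, II, III and IV by colour. Ndufb4 at -0.42 and Cox5b at -0.31 lie farthest to the left of their complexes, and no member passed the adjusted test.

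In complex I, 24 of 32 members were lower and the median difference was -0.04. Ndufb4, an accessory subunit of the membrane arm, was 6.34, 5.51, 5.96, 5.86 and 6.24 in the nontransgenic mice. In P467L mice it ran from 5.23 through a median of 5.53 to 5.89. Of the nontransgenic arrays 4 lay above the P467L median, and the ranges overlapped. Its difference was -0.42 ± 0.16 (SE), with an adjusted p of 0.739 in limma. Ndufa12, another accessory subunit, had the highest positive difference, 0.16 ± 0.08, with 7.91 ± 0.16 (SD, n = 5) in nontransgenic and 8.07 ± 0.11 (SD, n = 7) in P467L. A further row of Ndufa12, with means of 7.31 in nontransgenic and 7.25 in P467L, differed by -0.06. Ndufa2, also an accessory subunit, had the highest mean of complex I, at 10.14 ± 0.22 (SD, n = 5) and 10.17 ± 0.20 (SD, n = 7), and its difference was 0.02 ± 0.12. The 6 core subunits, those of the conserved catalytic part, had a median difference of -0.01, and the 26 accessory subunits -0.06.

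In complex II the 4 subunits had a median difference of 0.02, with 1 lower. Sdha, the flavoprotein that oxidises succinate, was 8.40, 8.32, 8.44, 8.72 and 8.53 in nontransgenic arrays and ran from 8.18 through 8.48 to 8.65 in P467L arrays. These ranges overlapped almost entirely, and the difference was -0.03 ± 0.10 (SE). Sdhc, a membrane anchor of the complex, differed by 0.08 ± 0.08. In complex III the median difference over 9 members was -0.02. Uqcrh, the hinge protein, stood at 5.66, 5.96, 6.03, 6.66 and 6.57 in nontransgenic mice and between 5.31 and 6.76 in P467L mice, around a median of 5.73. Its difference was -0.30 ± 0.26, less than the spread among the mice of either group. A further row of Uqcrh, with means of 5.69 in nontransgenic and 5.37 in P467L, differed by -0.32. Uqcr11, a small subunit, was below background in both groups and differed by -0.28 ± 0.17. Uqcrc2, a core protein, had the highest mean of the complex, 8.72 ± 0.22 (SD, n = 5) and 8.70 ± 0.25 (SD, n = 7).

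In complex IV the median difference over 15 members was -0.02, with 10 lower. Cox5b, a widespread subunit, was 6.12, 5.99, 6.10, 6.44 and 6.50 in nontransgenic mice, and 5.59, 5.92 and 6.29 at the lowest, the median and the highest in P467L mice. Its difference of -0.31 ± 0.13 (SE) had an adjusted p of 0.983 in limma, and the ranges overlapped. Cox7a2, the liver-type partner of the muscle form of subunit VIIa, differed by -0.18 ± 0.14. In complexes I, III and IV 5 members were lower in P467L in each of the 5 pairs of arrays with the same replicate number, namely Ndufa4, Ndufb7, Uqcrh, Cox5b and Cox7a2, of which Ndufb7 was named after its values were seen. No member was higher in all 5, and the labels do not state that equal numbers mark pairs. Over all genes 5.45% were lower in all 5 pairs and 5.41% higher, and of genes above background 7.82% were lower, so the members' share of 8.33% lies near that background.
Among the isoforms, neither a widespread form nor a tissue form passed the genotype test. Cox4i1 differed by -0.01 ± 0.09 and Cox4i2, a lung form, by -0.12 ± 0.12. Cox6a1 differed by -0.08 ± 0.08, and Cox6b1 by -0.02 ± 0.09. A further row of Cox6a1, with means of 6.43 in nontransgenic and 6.21 in P467L, differed by -0.22. Over the 7 members with more than 1 row, the further rows differed by -0.33 (Cox7c) to 0.57 (Cox5a, in a row below background). Cox6b2, a testis form, differed by 0.13 ± 0.15. Cox7b, Cox7b2, Cox8a and Cox8c, each below background in both groups, differed by -0.02 ± 0.18, 0.06 ± 0.07, -0.06 ± 0.17 and 0.16 ± 0.20. Cox8b was 10.73, 10.31, 10.72, 11.15 and 10.03 in the nontransgenic mice and 8.90, 10.83 and 11.15 at the lowest, the median and the highest in P467L mice. The low P467L array was replicate 7, which also had the lowest Ucp1, at 8.04. Its genotype difference was -0.13 ± 0.36 (SE).
Cox6a2, the heart and skeletal muscle form, was 6.20, 6.21, 5.67, 6.22 and 5.98 in nontransgenic mice. In P467L mice it ran from 5.76 through 6.06 to 7.36, and the highest value came from replicate 4. In that array 14 of 15 measured skeletal muscle markers were at their highest of the 12 arrays, with a list mean of 7.77, against 5.31 in the next P467L array and 5.05 to 5.62 in the nontransgenic arrays. The part of these markers in the Cox6a2 value was not tested. The Cox6a2 difference was 0.13 ± 0.23 (SE), and it was -0.06 without that array.

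**Figure D2:**
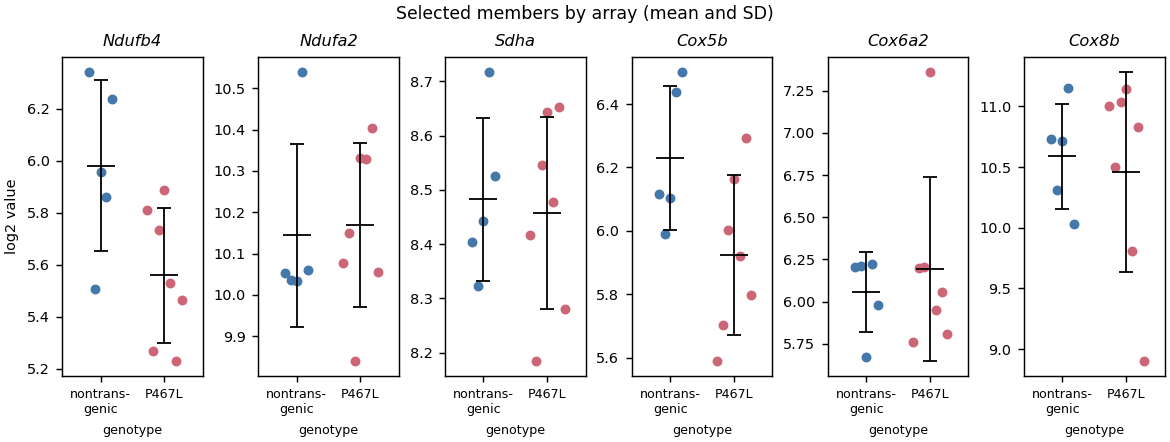
Log2 value (y axis) of 6 members in every array (dots), with the mean and SD of each genotype (black). Dots of both genotypes overlap in every panel, and 1 P467L array stands above the rest for Cox6a2.

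The mean over the 60 members gave 1 value per array. It was 6.69, 6.55, 6.79, 7.07 and 6.81 in the nontransgenic mice and ran from 6.57 through 6.66 to 7.00 in the P467L mice. The groups overlapped, with 6.78 ± 0.19 (SD, n = 5) and 6.73 ± 0.16 (SD, n = 7). Nontransgenic replicate 4 held the highest value of 34 members and P467L replicate 4 that of 14, while nontransgenic replicate 2 held the lowest of 19. In the former array 57 of 60 members lay above their own mean, and in P467L replicate 7 only 8 did.

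**Figure D3:**
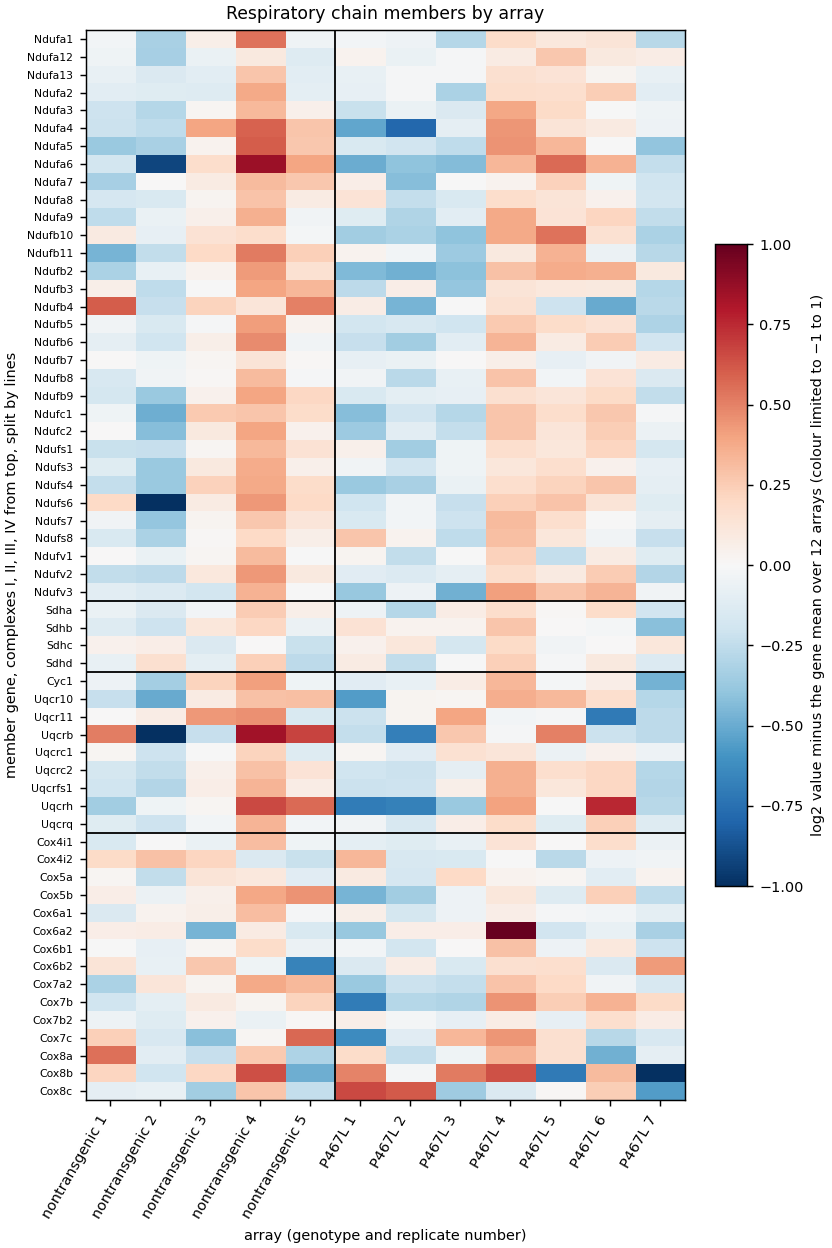
Log2 value of each member (rows, by complex) minus its mean over the 12 arrays, by array (columns); red is above and blue below the mean, limited to 1 on either side. Nontransgenic replicate 4 and P467L replicate 4 are red over most rows of complexes I to III, and nontransgenic replicate 2 is blue.

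Across arrays, the median correlation between members was higher within complexes I and III than within complex IV. The median correlation of 2 members over the 12 arrays, after each genotype's mean was taken off, was 0.70 within complex I, 0.41 within complex II, 0.58 within complex III and 0.15 within complex IV. It was 0.52 over all 1770 pairs. For members above background it was 0.60, against 0.16 between such members and other genes above background. Such members were 29 of 32 in complex I, 4 of 4 in complex II, 7 of 9 in complex III and 11 of 15 in complex IV. The part of dim rows in the values by complex was not tested. All points share the arrays and their upper quartile. After the upper quartile was taken out as well, the median within complex I was 0.50. Uqcrc2 and Ndufb6 had the highest median correlation with the other members, 0.77 and 0.76, and Cox4i2 the lowest, -0.32; Ndufb6, an accessory subunit of complex I, was named after its values were seen.

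The second comparison set each member against Ucp1, with genotype in the model. No member passed the test (smallest adjusted p = 0.619 in limma), and over all genes 0.00508% were called with a positive slope and 0% with a negative one. At an unadjusted p under 0.05, 20 members had a positive and 0 a negative slope, against 2.84% and 2.94% of all genes; the members varied together, so these are not independent counts. Of the 60 slopes 56 were above 0. The median was 0.11 log2 units per log2 unit of Ucp1, against -0.01 over all genes and 0.02 over genes above background, and it was 0.12 in complex I, 0.10 in complex II, 0.16 in complex III and 0.06 in complex IV. Cox8b had the steepest slope, 0.50 ± 0.14 (SE), with an adjusted p of 0.745. It was followed by Uqcrh at 0.26 ± 0.13, Ndufa6, an accessory subunit, at 0.24 ± 0.14, and Ndufa4, counted here with complex I by its symbol and now placed with complex IV, at 0.23 ± 0.10. The lowest slopes were those of Cox6b2, -0.08 ± 0.08, Cox8a, Sdhc and Cox4i2. With the array upper quartile as a further covariate, 49 of 60 slopes on Ucp1 were above 0. The members' median was then 0.06, against -0.01 over all genes. By complex it was 0.06 in complex I, 0.08 in complex II, 0.12 in complex III and 0.05 in complex IV. With the replicate number as a block, the members' median slope on Ucp1 was -0.012 and 28 of 60 slopes were above 0, so the direction of the median turned, and the all-gene median was -0.04. Only the 5 replicate pairs inform this slope, since P467L replicates 6 and 7 have no partner.
The array mean over the members correlated with Ucp1 at r = 0.58 and rho = 0.50 over the 12 arrays. The values were 0.62 and 0.60 over deviations from genotype means, and 0.49 and 0.43 within the 7 P467L arrays. Without the 2 arrays with Ucp1 farthest from its median they were 0.69 and 0.56. Lists of markers were used in the same way. Against the mean of 14 brown adipocyte markers, Ucp1 among them, r was 0.50, and 55 of 60 slopes were above 0. Without the 2 farthest arrays, P467L replicate 7 and nontransgenic replicate 4, it was 0.20. Those left out for Ucp1 were P467L replicates 3 and 7, so 0.69 and 0.20 rest on different arrays. Against general adipocyte markers r was 0.07. Against skeletal muscle markers r was 0.52, and -0.48 without P467L replicate 4 and nontransgenic replicate 4. With the plain mean over all genes r was 0.71, and 0.81 within the P467L arrays.

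**Figure D4:**
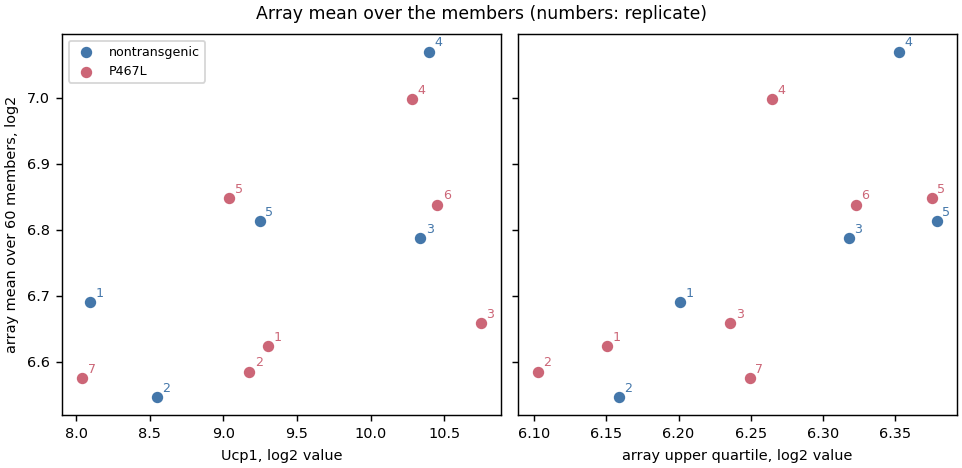
Mean log2 value over the 60 members of each array (y axis) against Ucp1 (left) and against the array upper quartile (right), with the replicate number beside each dot and genotype by colour. The mean was higher on arrays with higher values of both measures, with r = 0.58 and r = 0.73, and the genotypes overlap.

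The third comparison set each member against the upper quartile of its array, a measure of how bright the brighter rows of an array were. Slopes are in log2 units per 0.1 of upper quartile. In limma, 22 of 60 members (36.7%) had a positive slope and 0 a negative one at an adjusted p under 0.05, against 18.6% and 14.4% of all genes. The upper quartile is itself computed from the brighter rows. Among genes with a mean above background, a comparison added after the values were seen, 19 of 52 members (36.5%) passed, against 32.1% of those genes, which is near it. By complex, 14 of 32 members of complex I (43.8%), 0 of 4 of complex II, 5 of 9 of complex III and 3 of 15 of complex IV passed. The medians were 0.17, 0.02, 0.19 and 0.04 in that order. No test of the difference between complexes was run.
Ndufa6 was 9.07, 8.34, 9.43, 10.12 and 9.65 in nontransgenic mice and 8.76, 9.02 and 9.82 at the lowest, the median and the highest in P467L mice. Its slope was the steepest, 0.50 ± 0.09 (SE), with an adjusted p of 0.00199 in limma. Uqcrb, a subunit of complex III that was below background, followed at 0.42 ± 0.14, then Uqcrh at 0.40 ± 0.10 and Ndufa4 at 0.36 ± 0.07. The lowest slopes were those of Cox8c, -0.14 ± 0.11, Cox4i2, -0.14 ± 0.05, and Cox8b, -0.11 ± 0.21.
The number of calls changed with the arrays, the model and the normalization. With the replicate number as a block 0 members passed, as did 0 of all genes. The block fits a level for each replicate number, which leaves little to estimate error from. P467L replicates 6 and 7, without a partner, then add nothing to the slope. The lost calls under the block therefore do not show that the slopes were lost. Of the 60 slopes 46 were above 0 with a median of 0.18, against 52 and 0.14 without the block. Without the 3 arrays named at the start 0 members passed and 1 of all genes, with 47 slopes above 0 and a median of 0.16. Without nontransgenic replicate 2 alone, 11 passed. Quantile normalization gives every array the same upper quartile, so slopes were taken on the upper quartile of the deposited values. Lower slopes of the brighter rows as a whole were thus built in. After it 9 members passed with a positive and 3 with a negative slope, and the median slope was -0.01. Over all 19687 genes, 1200 passed with a positive and 4194 with a negative slope, and the median was -0.05. With Ucp1 as a further covariate 13 passed.

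**Figure D5:**
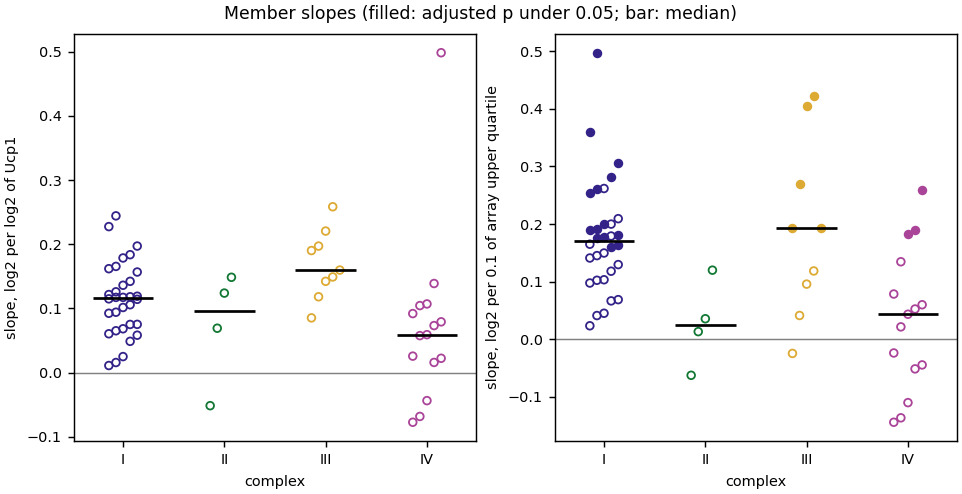
Slope of each member on Ucp1 (left, log2 per log2) and on the array upper quartile (right, log2 per 0.1), by complex on the x axis; filled circles passed at an adjusted p under 0.05 and bars are medians. No circle is filled on the left, and 22 are filled on the right, 14 of them in complex I.

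The array mean over the members correlated with the upper quartile at r = 0.73 and rho = 0.76. The values were 0.72 and 0.78 over deviations from genotype means, 0.65 and 0.68 within the P467L arrays, and 0.73 and 0.79 without the 2 farthest arrays. By complex r was 0.80 for complex I, 0.19 for complex II, 0.78 for complex III and 0.28 for complex IV. With Ucp1 the values in the same order were 0.51, 0.61, 0.66 and 0.54. Ucp1 and the upper quartile themselves correlated at 0.36.

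Other genes of the pathway were taken from lists. None of the 12 subunits of the ATP synthase, 39 assembly factors, 15 electron carriers and related genes, 16 citric acid cycle genes and 20 regulators of mitochondrial biogenesis passed the genotype test in either direction. Their median differences were 0.01, -0.03, 0.00, 0.00 and -0.03. Suclg2, a subunit of succinyl-CoA ligase, differed by -0.50 ± 0.22 (SE), with an adjusted p of 0.983 in limma. Coq5, an enzyme of coenzyme Q synthesis, differed by -0.23 ± 0.11, and Polg2, the accessory subunit of the mitochondrial DNA polymerase, by -0.27 ± 0.12. Nrf1, whose motif was searched above, differed by -0.16 ± 0.09, Ppargc1a, a coactivator of biogenesis, by -0.03 ± 0.18, and Cycs, cytochrome c, by 0.06 ± 0.25. ND6, the 1 subunit encoded in the mitochondrial DNA with a row of its own, differed by -0.02 ± 0.06. On the upper quartile 21 of 39 assembly factors passed with a positive slope at an adjusted p under 0.05 in limma, against 18.6% of all genes and 32.1% of genes above background. The same held for 4 of 12 ATP synthase subunits, 4 of 16 citric acid cycle genes, 3 of 15 electron carriers and 6 of 20 regulators, counts near those shares, and 2 regulators passed with a negative slope, against 14.4% of all genes. No gene of the table passed this test with the replicate block, which leaves little to estimate error from. The array mean of the members correlated with that of the ATP synthase at r = 0.90 and with that of the citric acid cycle at r = 0.84. With the mean over all genes it correlated at r = 0.71.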

How the data were processed

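The deposited values of 12 arrays are on a log2 scale. The submitters' processing notes name RMA, Affymetrix Power Tools and, as genome build, mm9, with no version of the tools. RMA corrects background, normalizes between arrays and shrinks differences of dim genes. The deposited table had 101175 rows, of which the platform annotation gave 1 gene symbol to 22754, none to 76899, and more than 1 to 1522, which were left unnamed. Of rows with 1 symbol, 22245 matched RefSeq (GRCm38.p6). Cox7a1 had no row of its own. Members and lists were chosen with earlier results of these data known, so no test over the members as a set was made, and no p is given for their mean.

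All tests used limma 3.58.1 in R 4.3.3 (lmFit, eBayes) on the deposited log2 values over 19687 genes, with Benjamini-Hochberg adjustment over all of them and a threshold of 0.05. The 3 fits were P467L minus nontransgenic, and slopes on Ucp1 and on the array upper quartile with genotype in the model. The number of arrays limits the precision. Errors after ± are SE of differences and slopes, or SD of levels. The script was tested on simulated data. The labels do not say that the animals differed in litter or day, and each array is 1 mouse.

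Replicate numbers 1 to 5 occur in both genotypes. Deviations of arrays of equal number correlated at 0.309, 0.398, 0.227, 0.233 and 0.398. The numbers were therefore tried as pairs, a choice that comes from the data and not from the labels. The equal-numbered partner was the best for 3 of 5 nontransgenic and 2 of 5 P467L arrays. For the rest of these arrays an array of another number correlated more, so a pairing is not shown. Arrays P467L 6 and 7 have no partner, so under the block they add nothing to differences or slopes.

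Members were named by rule: any member called; in each complex the smallest p, the largest differences and the highest mean; isoform pairs of complex IV; and the extremes of both slopes. Alternatives were the replicate block, leaving out each array, quantile normalization, array medians subtracted, the upper quartile, Ucp1 or brown adipocyte markers as covariates, row means, brighter genes only, all rows, and trended robust variance. Leaving out 3 arrays together was added after seeing the data, as were the comparison with genes above background, the co-variation after the upper quartile, the motif search and the count of genes lower in all pairs.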

Additional observations from a re-analysis of the deposited data

Results flagged for a closer look

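In 62 groups of arrays, for the named members, Ucp1, the mean over the members and that over each complex, 2 held 1 array far from the others of its genotype by Dixon's criterion. Chance gives about 1 in 20 groups. Ndufa2, a complex I accessory subunit, was 10.54 in nontransgenic replicate 4, and the nearest nontransgenic array was at 10.06. Cox6a2, the muscle form of a complex IV subunit, was 7.36 in P467L replicate 4, and the nearest P467L array was at 6.21.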

How the results depend on the processing

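Across all alternatives 0 members passed the genotype test and 0 the slope on Ucp1. The median differences and slopes have no test, and were taken to have moved when they changed by over 1 SD of the array mean (for slopes, divided by the SD of the covariate), a wide limit within which many signs turned. The median difference turned in 3 of 23 alternatives for the members (range -0.09 to 0.05), 2 for complex I (-0.12 to 0.05), 5 for complex II (-0.03 to 0.08), 7 for complex III (-0.10 to 0.05) and 4 for complex IV (-0.09 to 0.01). The median Ucp1 slope turned under the replicate block for the members (-0.012) and complexes I (-0.012), II and IV (-0.018). After quantile normalization the median upper quartile slope turned for the members (-0.013) and all 4 complexes (-0.0037, -0.13, -0.00048 and -0.051), and with both covariates for complex II (-0.025). With the replicate block the Ucp1 slope of complex II was -0.028, 0 members passed with a positive upper quartile slope, and Cox8b (0.11) and Cox8a (0.046) turned in genotype difference; the block changed no other call. With brown adipocyte markers in place of Ucp1, a measure of another range, the slopes were 0.34 for the members, 0.34, 0.42, 0.44 and 0.24 for complexes I to IV. Positive upper quartile slopes that passed numbered 13 with both covariates, 9 after quantile normalization (3 negative) and 0 without 3 arrays. After quantile normalization every array has the same upper quartile, so that of the deposited values was used. Lower slopes of the brighter rows as a whole were thus built in, and the turned medians do not test the slopes. Leaving out each array gave 11 to 25 positive and 0 to 1 negative slopes that passed. Every sign change of a named member was counted as a reversal, all without a call; the cause was not tested. With the upper quartile as a covariate these were Sdha (0.021), Uqcrc2 (0.053), Cox4i1 (0.017), Cox6b1 (0.0031), Cox7b (0.085) and Ndufa6 (0.082); after quantile normalization Cox4i1 (0.021) and Cox6b1 (0.022); with array medians subtracted Cox4i1 (0.0013); and without 3 arrays Cox8c (-0.061), Cox4i1 (0.025) and Cox7b (0.15). Leaving out each array, the genotype difference ranged from -0.015 to 0.12 for Ndufa2, -0.065 to 0.034 for Sdha, -0.011 to 0.096 for Uqcrc1, -0.087 to 0.047 for Uqcrc2, -0.27 to 0.13 for Cox8b, -0.055 to 0.061 for Cox4i1, -0.061 to 0.21 for Cox6a2, -0.071 to 0.022 for Cox6b1, -0.016 to 0.22 for Cox6b2, -0.092 to 0.10 for Cox7b, -0.14 to 0.072 for Cox8a and -0.36 to 0.088 for Ndufa6.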
